A study of Mus musculus with 2 samples.

Results

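Nkx genes encode homeobox transcription factors. Their RNA was measured by total RNA-seq in the embryonic facial prominence of B6NCrl mice at embryonic day 10.5, the tissue from which the jaws, palate and nose form. The 9 genes described here are Nkx1-2, Nkx2-1, Nkx2-2, Nkx2-3, Nkx2-5, Nkx2-6, Nkx3-2, Nkx6-1 and Nkx6-2, chosen by symbol as genes known from the jaw joint, pharynx, heart and neural tube and matched by gene ID, out of 43346 Ensembl genes in the tables. All 9 had a row in both libraries. The samples were 1 group of 2 biological replicates, replicate 2 pooled from 51 embryos and replicate 1 from 69, all healthy, untreated as far as the labels say and of both sexes. The input was 10 ng of RNA above 200 nt per library. Summed over genes, the expected counts came to 39531700 for replicate 2 and to 40059176 for replicate 1. With 1 group there was no contrast between conditions, so the values describe the level of each gene and how far these libraries differed.

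Nkx proteins bind DNA through the homeodomain, and many of them repress transcription together with Groucho corepressors. In the ventral neural tube, Nkx2-2, Nkx6-1 and Nkx6-2 respond to Sonic hedgehog and divide the progenitors into domains that yield different neurons. Other members mark regions of the pharynx and its derivatives, such as the thyroid, or the heart field, and Nkx3-2, also called Bapx1, is required for the jaw joint in zebrafish. The facial prominence is mainly neural crest mesenchyme under ectoderm.

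The sequences printed next are shown because they come from what the family shares: the most conserved part of the homeobox, the codons of the helix that contacts DNA. They are given for 4 members. Each line holds 48 bases, in a frame without a stop nearby, of the transcript with the highest share of its gene. For Nkx6-2 that is Nkx6-2-201, classed as a nonsense-mediated decay target. The bases are read 5′ to 3′ from GENCODE M21 on GRCm38, and capitals mark the 25 bases identical in all 4.
Nkx6-2: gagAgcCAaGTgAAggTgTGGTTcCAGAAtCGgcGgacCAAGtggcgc
Nkx2-3: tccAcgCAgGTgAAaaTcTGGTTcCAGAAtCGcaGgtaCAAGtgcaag
Nkx3-2: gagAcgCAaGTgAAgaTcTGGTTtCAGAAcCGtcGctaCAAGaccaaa
Nkx1-2: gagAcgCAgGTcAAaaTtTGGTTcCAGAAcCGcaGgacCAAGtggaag
The stretch was located with a sequence pattern for this helix, so some of the identical bases were fixed by the search. Identity over the stretch, those bases included, was highest between Nkx1-2 and Nkx2-3 at 39 of 48 bases. It was lowest between Nkx2-3 and Nkx6-2 at 31 of 48. The stretch is shorter than a read window, and over windows of 100 bases no member shared sequence with another member. Windows shared with genes outside the family are given beside the members concerned.

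The Nkx genes stood at low levels. TPM, a transcript abundance per length scaled to the same total in each library, reached at least 1 in both pools for 6 of the 9 members, beside 58.2% of 21474 named protein coding genes. No member reached a mean of 10 TPM. The median over the 9 members was 1.71 TPM, against 3.56 TPM over all protein coding genes and 20.1 TPM over those detected. Nkx6-2 and Nkx2-1 headed the order of mean level, and Nkx2-5 and Nkx1-2 ended it.

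**Figure D1:**
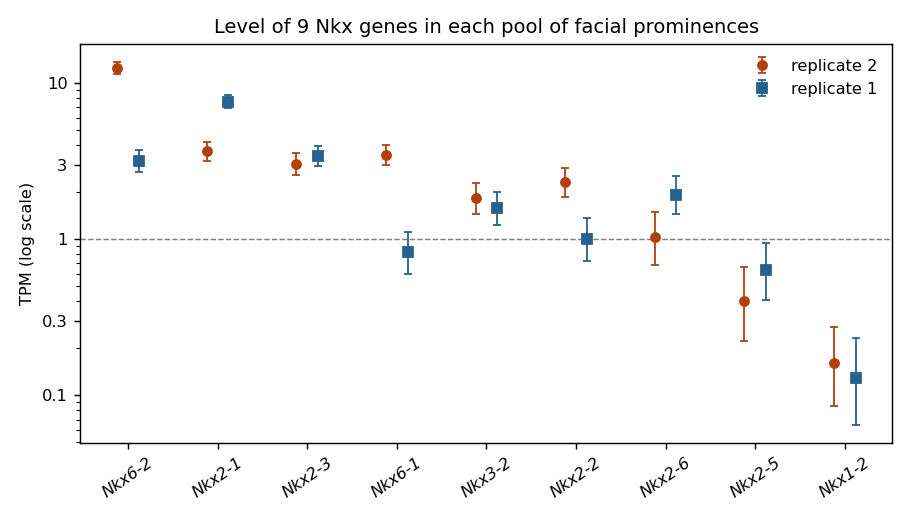
TPM (log axis) of the 9 Nkx genes in order of mean level, with circles for replicate 2, squares for replicate 1, bars for exact Poisson 95% intervals of the counts (counting error only) and a dashed line at 1 TPM. Nkx6-2 reaches 12.5 TPM in replicate 2, and the replicates lie close together for Nkx2-3 and Nkx3-2 but far apart for Nkx6-2, Nkx6-1 and Nkx2-1.

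The neural tube members were all higher in replicate 2. Nkx6-2, which acts with Nkx6-1 in ventral neural progenitors (ENSMUSG00000041309, chromosome 7, 139579376 to 139582797), had 12.5 TPM in replicate 2 and 3.18 TPM in replicate 1, a mean of 7.86 ± 6.61 (SD, n = 2). These values rested on 528 expected counts in replicate 2 and 146 in replicate 1, and after TMM scaling replicate 2 was 3.69-fold higher (95% interval 3.09 to 4.49). Fold values use a prior count of 2, and all intervals on counts and folds are exact and cover counting error only. Nkx6-1, a selector of motor neuron progenitors (ENSMUSG00000035187, chromosome 5, 101658139 to 101664996), had 3.47 TPM in replicate 2 and 0.83 TPM in replicate 1. Its 183 counts in replicate 2 and 44 in replicate 1 made replicate 2 higher by 4.13-fold (3.06 to 6.08). The level in replicate 1 kept it out of the members detected. Nkx2-2, a regulator of the most ventral progenitors beside the floor plate (ENSMUSG00000027434, chromosome 2, 147177546 to 147194243), had 2.33 TPM in replicate 2 and 1.01 TPM in replicate 1. With 86 counts in replicate 2 and 43 in replicate 1 it was 2.01-fold higher in replicate 2 (1.41 to 3.04), at the edge of the 2-fold threshold. The log2 ratio of 1.01 came to 0.999 with median-of-ratios factors and 0.986 with total counts, both short of that threshold. In bulk tissue, fewer cells of a type and less RNA per cell cannot be told apart.

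Nkx2-1 differed in the opposite direction. Nkx2-1, required in the thyroid, the lung and the ventral forebrain (ENSMUSG00000001496, chromosome 12, 56531958 to 56536908), had 3.66 TPM in replicate 2 and 7.62 TPM in replicate 1, a mean of 5.64 ± 2.80. Its counts were 211 in replicate 2 and 442 in replicate 1, a log2 ratio of -1.02 and a fold of 0.493 (0.414 to 0.579). This too was at the edge of the 2-fold threshold. Of the 6 members with a mean count of at least 50, 4 were at least 2-fold apart, 3 higher in replicate 2 and 1 higher in replicate 1. Among all 14118 genes with such a count, 1.23% were at least 2-fold apart, 0.56% higher in replicate 2 and 0.673% higher in replicate 1. Counts between 50 and 500 vary more, and among the 4628 genes in that range the shares were 3.28% apart, 1.47% higher in replicate 2 and 1.82% higher in replicate 1. The median absolute log2 ratio was 1.01 over the 6 members and 0.21 over the genes of that range. These values are descriptive, since the members were chosen with earlier results of these data known.

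**Figure D2:**
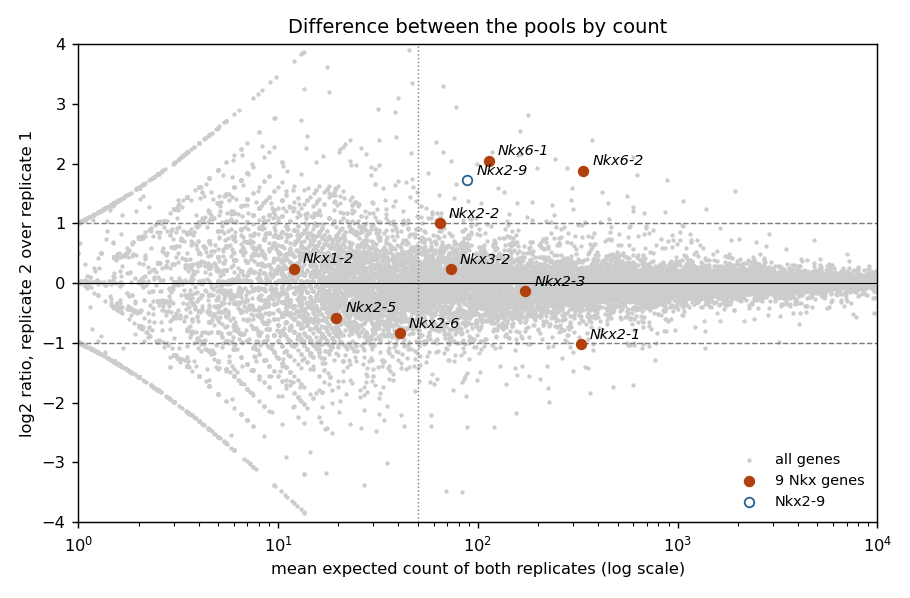
Log2 ratio of replicate 2 over replicate 1 against mean expected count (log axis), with the 9 Nkx genes filled, Nkx2-9 open, all genes in grey, dashed lines at 2-fold and a dotted line at a mean count of 50. Nkx6-1, Nkx6-2 and the open point of Nkx2-9 lie above the cloud of genes of like count, Nkx2-2 lies on the upper dashed line and Nkx2-1 on the lower one. Genes beyond the axes are not drawn.

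The other pharyngeal and heart members had lower values in replicate 2, though the interval left out 1 only for Nkx2-6. Nkx2-6, a gene of the pharyngeal pouch endoderm (ENSMUSG00000044186, chromosome 14, 69171802 to 69175518), had 1.03 TPM in replicate 2 and 1.93 TPM in replicate 1 from 28 counts in replicate 2 and 53 in replicate 1. Its fold of 0.56 (0.331 to 0.874) left out 1, but the mean count was below 50 and the fold below the threshold. Nkx2-3, expressed in the pharyngeal floor and later needed in the spleen and gut (ENSMUSG00000044220, chromosome 19, 43612325 to 43615892), had 3.05 TPM in replicate 2 and 3.43 TPM in replicate 1. This was the most even of the higher members, with 162 counts in replicate 2, 183 in replicate 1 and a fold of 0.91 (0.731 to 1.13). Nkx2-5, the early marker of heart precursors (ENSMUSG00000015579, chromosome 17, 26838664 to 26845009), had 0.4 TPM in replicate 2 and 0.64 TPM in replicate 1. Its 15 counts in replicate 2 and 24 in replicate 1 gave a fold of 0.67 (0.313 to 1.28), so a difference was not detectable at this depth.

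The jaw joint gene and the caudal gene did not differ beyond counting error. Nkx3-2, which patterns the middle ear and axial skeleton of the mouse (ENSMUSG00000049691, chromosome 5, 41761483 to 41764501), had 1.83 TPM in replicate 2 and 1.58 TPM in replicate 1, a mean of 1.71 ± 0.177. With 78 counts in replicate 2 and 68 in replicate 1 its fold was 1.17 (0.84 to 1.66). Nkx1-2, known from the caudal epiblast that feeds the trunk neural tube (ENSMUSG00000048528, chromosome 7, 132594878 to 132599637), was lowest with 0.16 TPM in replicate 2 and 0.13 TPM in replicate 1. It had 13 counts in replicate 2 and 11 in replicate 1, a fold of 1.18 (0.502 to 2.99). It lies within the annotated span of Fgfr2 on the same strand, and 346 of its 3165 windows of 100 bases occur in the antisense gene Gm16764, which had 0 counts in both libraries.

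The order of levels depended on the replicate. Nkx6-2 ranked first in replicate 2 and 3rd in replicate 1, while Nkx2-1 ranked 2nd in replicate 2 and first in replicate 1. Nkx6-1 took place 3 in replicate 2 and place 7 in replicate 1. Neighbours in the order of mean level were compared on log2(TPM + 0.1), taking the SD between replicates from the 200 genes closest to each in level. Of the 8 neighbouring pairs, 1 was separated beyond that spread with the same sign in both libraries. This was Nkx2-1 over Nkx2-3, a difference of 0.69 (95% interval 0.10 to 1.29), with 0.26 in replicate 2 and 1.13 in replicate 1. Nkx6-2 over Nkx2-1 differed by 0.26 (-0.25 to 0.76), but by 1.75 in replicate 2 and -1.23 in replicate 1. For Nkx6-2, Nkx6-1, Nkx2-1, Nkx2-2 and Nkx2-6 this pooled SD was smaller than their own SD over the 2 libraries. The count was 0 with a pseudocount of 1 TPM and 4 with posterior mean TPM.

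Of the 9 members 6 had 1 transcript in the deposited quantification and 3 had several. GENCODE M21 also lists Nkx2-5-202, for which no value was given. For Nkx6-2 the transcript Nkx6-2-201, classed as a nonsense-mediated decay target in GENCODE M21, held 65.6% of the gene in replicate 2 and 86.7% in replicate 1. The protein coding Nkx6-2-202 had 4.32 TPM in replicate 2 and 0.42 TPM in replicate 1. The authors' own interval for Nkx6-2-202, of unstated level, ran from 1.61 to 6.24 TPM in replicate 2 and from 1.8e-05 to 1.57 TPM in replicate 1. Nkx6-2 overlaps Inpp5a on the opposite strand by 277 bases, and 149 of its 1808 windows are shared with Inpp5a, while none of Nkx6-2-202 are. Inpp5a, an inositol phosphatase gene, had 12.8 TPM in replicate 2 and 13.9 TPM in replicate 1. The sources used here do not state whether strand was used in counting, and without it reads of the 2 genes cannot be told apart in those windows.

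The transcripts of Nkx2-1 had close shares in the 2 pools. Nkx2-1-202 held 92.2% in replicate 2 and 91.8% in replicate 1, and Nkx2-1-201 the remainder, although the gene was lower in replicate 2. For Nkx2-2, Nkx2-2-201 led with 62.2% in replicate 2 and 71.6% in replicate 1. The processed transcripts Nkx2-2-202 and Nkx2-2-204 held 17.7% and 13.8% in replicate 2 and 15.5% and 0% in replicate 1, and Nkx2-2-203 held 6.21% in replicate 2 and 12.9% in replicate 1. Each of these 3 rested on fewer than 4 expected counts in each library. The antisense gene Nkx2-2os, which shares 181 windows with Nkx2-2, had 0 counts in both libraries. Gm26973, antisense to Nkx2-1, had 1 count in replicate 2 and 9 in replicate 1, and 23 of the 2739 windows of Nkx2-1 are shared with Gm33843.

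**Figure D3:**
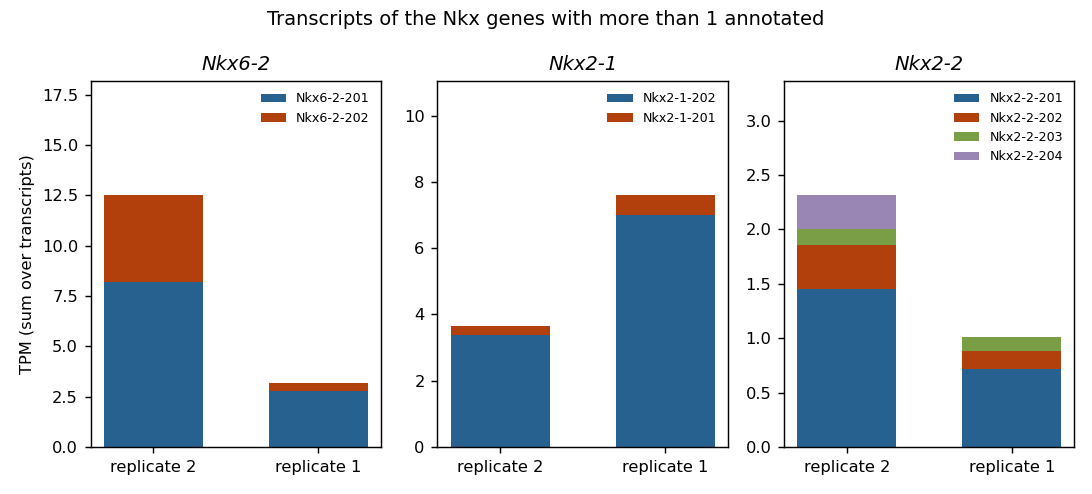
Stacked TPM of the annotated transcripts of Nkx6-2, Nkx2-1 and Nkx2-2, with replicate 2 left of replicate 1 in each panel and a separate axis per gene. Nkx6-2-202 makes up 34.4% of Nkx6-2 in replicate 2 and 13.3% in replicate 1, while the shares of Nkx2-1 are alike.

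The 250 bases before the start given in RefSeq's table (GRCm38.p6) were compared for the 8 members with an entry. For Nkx6-1, Nkx2-2, Nkx3-2 and Nkx2-5 that start lies inside the GENCODE span of the gene, so the stretch falls within the annotated gene. Promoters of the 4 members that were at least 2-fold apart are shown, minus strand genes as read 5′ to 3′, with capitals for any motif searched. The motifs, on both strands, were the TATA box TATAAA, the CCAAT box, the GC box GGGCGG, the Gli core ACCACCC and the NK2 core AAGTG.
Nkx6-2 at chr7:139582798-139583047, minus strand: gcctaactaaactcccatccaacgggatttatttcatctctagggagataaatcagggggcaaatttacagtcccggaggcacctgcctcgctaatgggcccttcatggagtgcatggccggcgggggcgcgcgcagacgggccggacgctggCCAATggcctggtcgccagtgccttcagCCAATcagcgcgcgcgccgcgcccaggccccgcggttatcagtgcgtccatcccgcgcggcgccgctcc
Nkx6-1 at chr5:101664712-101664961, minus strand: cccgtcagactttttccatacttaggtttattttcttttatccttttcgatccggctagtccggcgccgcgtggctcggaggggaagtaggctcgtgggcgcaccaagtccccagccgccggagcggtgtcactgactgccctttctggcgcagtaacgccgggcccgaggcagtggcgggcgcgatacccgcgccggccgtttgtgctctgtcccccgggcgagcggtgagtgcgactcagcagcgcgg
Nkx2-2 at chr2:147186403-147186652, minus strand: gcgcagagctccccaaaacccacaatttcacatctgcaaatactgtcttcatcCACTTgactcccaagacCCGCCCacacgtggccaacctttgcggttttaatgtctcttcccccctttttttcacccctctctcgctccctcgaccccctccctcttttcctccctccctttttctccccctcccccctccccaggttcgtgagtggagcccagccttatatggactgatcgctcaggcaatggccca
Nkx2-1 at chr12:56536909-56537158, minus strand: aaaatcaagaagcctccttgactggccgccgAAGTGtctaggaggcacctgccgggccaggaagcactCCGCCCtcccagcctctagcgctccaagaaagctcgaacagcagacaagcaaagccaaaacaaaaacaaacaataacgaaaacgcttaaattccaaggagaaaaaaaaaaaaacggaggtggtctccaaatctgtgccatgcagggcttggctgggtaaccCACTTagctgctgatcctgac
Nkx6-2 held CCAAT at 97 and 69 bases before the start, and Nkx6-1 held none of the 5 motifs. Nkx2-2 held a GC box and an NK2 core, and Nkx2-1 a GC box and NK2 cores at 219 and 21 bases before the start. Of the 8 promoters 3 held CCAAT, 5 a GC box and 4 an NK2 core, against 33.8%, 32.7% and 40.7% of 32851 promoters. None held TATAAA or the Gli core, which 12.4% and 3.92% of all promoters did. The GC content was 65.2% for both Nkx6 promoters, 56.4% for Nkx2-2 and 50.8% for Nkx2-1, beside a median of 52.4%. These matches describe letters and are not binding sites.

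Among Nkx genes outside the 9, Nkx2-9 was close to Nkx2-2 in count and direction. Nkx2-9, expressed beside the floor plate like Nkx2-2, had 4.43 TPM in replicate 2 and 1.33 TPM in replicate 1, with 136 counts in replicate 2, 41 in replicate 1 and a 95% interval of the fold from 2.39 to 4.96. It was detected in both pools and at least 2-fold apart. Nkx2-4, a relative of Nkx2-1, had 15 counts in replicate 2 and 9 in replicate 1, and Nkx1-1 and Nkx6-3 had at most 1 count in a library. The exact Poisson interval of a count of 0 ends at 3.69 counts. Among 10 other homeobox genes of the NK-like class, 6 were detected and none with a mean count of at least 50 was 2-fold apart. They were led by the neural crest and ganglion genes Tlx2 (6.80 TPM in replicate 2, 8.74 in replicate 1) and Tlx3 (4.15 in replicate 2, 4.26 in replicate 1) and by Hhex (4.59 in replicate 2, 4.33 in replicate 1), a gene of the foregut endoderm and endothelium, and ended with Lbx1 (0.33 in replicate 2, 0.19 in replicate 1) and Hmx3 (0.36 in replicate 2, 0.08 in replicate 1).

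Some markers of the tissues in which the Nkx genes act differed between the pools too. Of 8 ventral neural tube genes 5 were detected, and the summed level of the 8 was 35.69 TPM in replicate 2 and 15.25 TPM in replicate 1. Directions were mixed. Among the 7 with a mean count of at least 10, 4 were higher in replicate 2 and 3 in replicate 1, with a median log2 ratio of 0.30. Dbx1, of interneuron progenitors, had 18.3 TPM in replicate 2 and 4.34 TPM in replicate 1, a log2 ratio of 2.10. Dbx2, expressed in neighbouring progenitors, had 1.39 TPM in replicate 2 and 0.12 in replicate 1. The motor neuron gene Lhx3 differed little (2.93 TPM in replicate 2, 2.23 in replicate 1), and Mnx1 had 1 count in all. Sim1, which is also a hypothalamic gene, was lower in replicate 2 with 30 counts against 80 in replicate 1. Olig2 and Olig1, named after their values were seen, were likewise lower in replicate 2, at 1.98 and 1.56 TPM against 2.95 and 2.82 TPM in replicate 1. Of 4 neural progenitor genes none was 2-fold apart, with a sum of 252.97 TPM in replicate 2 and 188.67 TPM in replicate 1. The difference lay in Hes5 (126 TPM in replicate 2, 71.2 in replicate 1) and Pax6 (18.6 in replicate 2, 11.0 in replicate 1), for both of which the fold interval lay above 1. Fabp7 (107 TPM in replicate 2, 106 in replicate 1) and Sox1 (0.93 in replicate 2, 0.88 in replicate 1) did not differ beyond counting error. The part of these cells in the values of Nkx6-2, Nkx6-1 and Nkx2-2 was not tested.

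No gene of the ventral forebrain list was 2-fold apart, and among pharyngeal genes only Pax1 was. Nkx2-1 itself, with a log2 ratio of -1.02, was at the edge of that threshold. All 8 forebrain genes were detected, with a median log2 ratio of -0.23 and a sum of 46.44 TPM in replicate 2 and 57.27 TPM in replicate 1. Their highest members were Lhx2 (15.0 TPM in replicate 2, 16.6 in replicate 1), Six3 (7.34 in replicate 2, 11.1 in replicate 1) and Rax (5.78 in replicate 2, 7.13 in replicate 1), and their lowest Hesx1 (2.40 in replicate 2, 2.79 in replicate 1) and Fezf2 (2.55 in replicate 2, 2.24 in replicate 1). Values were lower in replicate 2 for 7 of the 8, but the intervals of Lhx2, Fezf1 and Hesx1 held a fold of 1. Of 10 pharyngeal endoderm genes 7 were detected, with a sum of 30.4 TPM in replicate 2 and 35.59 TPM in replicate 1. Of 9 with a mean count of at least 10, 4 were higher in replicate 2 and 5 in replicate 1. The fold intervals of those 4 all held 1, whereas among the 5 only that of Foxa1 did. Pax1, a pouch gene, was 2-fold apart with 51 counts in replicate 2 and 130 in replicate 1, a log2 ratio of -1.28, and Pax9 had 5.27 TPM in replicate 2 and 8.35 in replicate 1. Sox17 (7.16 TPM in replicate 2, 7.21 in replicate 1) and Tbx1 (6.96 in replicate 2, 6.99 in replicate 1) were even, and Foxa1 (0.41 in replicate 2, 0.61 in replicate 1) and Gcm2 (0 in replicate 2, 0.04 in replicate 1) lowest. Of 7 genes of thyroid and lung epithelium none was detected in both pools. The highest were Pax8 (2.53 TPM in replicate 2, 0.93 in replicate 1), Slc5a5 (0.34 in replicate 2, 0.25 in replicate 1) and Tshr (0.14 in replicate 2, 0.33 in replicate 1), and Sftpc had 1 count in all. The part of these tissues in the values of Nkx2-1 and Nkx2-6 was not tested.

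Most heart contractile genes with enough counts had higher values in replicate 2. Nkx2-5 had fewer counts there, but the interval of its fold (0.313 to 1.28) held 1. Of 10 contractile genes 2 were detected, none was at 0 in both libraries, and their sum was 38.65 TPM in replicate 2 and 10.49 TPM in replicate 1. All 8 with a mean count of at least 10 had a fold above 1 in replicate 2, with a median log2 ratio of 2.09. The intervals of Tnni3 (0.85 to 2.16) and Ryr2 (0.67 to 1.92) held a fold of 1. Myl7, the atrial light chain gene, had 20.0 TPM in replicate 2 and 4.53 TPM in replicate 1. In replicate 2, Myh7 had 3.94 TPM (replicate 1, 0.75), Tnnt2 3.69 (replicate 1, 0.93), Myh6 0.66 (replicate 1, 0.16) and Tnni3 2.99 (replicate 1, 2.36), while Nppa (0.09 in replicate 2, 0.17 in replicate 1) and Ryr2 (0.07 in replicate 2, 0.07 in replicate 1) were lowest. The part of heart tissue in the value of Nkx2-5 was not tested. Among 8 cardiac transcription factors 3 were detected, led by Isl1 (41.3 TPM in replicate 2, 49.7 in replicate 1), Hand1 (41.8 in replicate 2, 18.1 in replicate 1) and Mef2c (6.58 in replicate 2, 7.18 in replicate 1), which the face and its nerves and vessels also express. Hand1 and Tbx20 (1.58 in replicate 2, 0.69 in replicate 1) were 2-fold higher in replicate 2, and Gata6 (0.47 in replicate 2, 0.41 in replicate 1) and Gata4 (0.38 in replicate 2, 0.36 in replicate 1) were lowest.

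**Figure D4:**
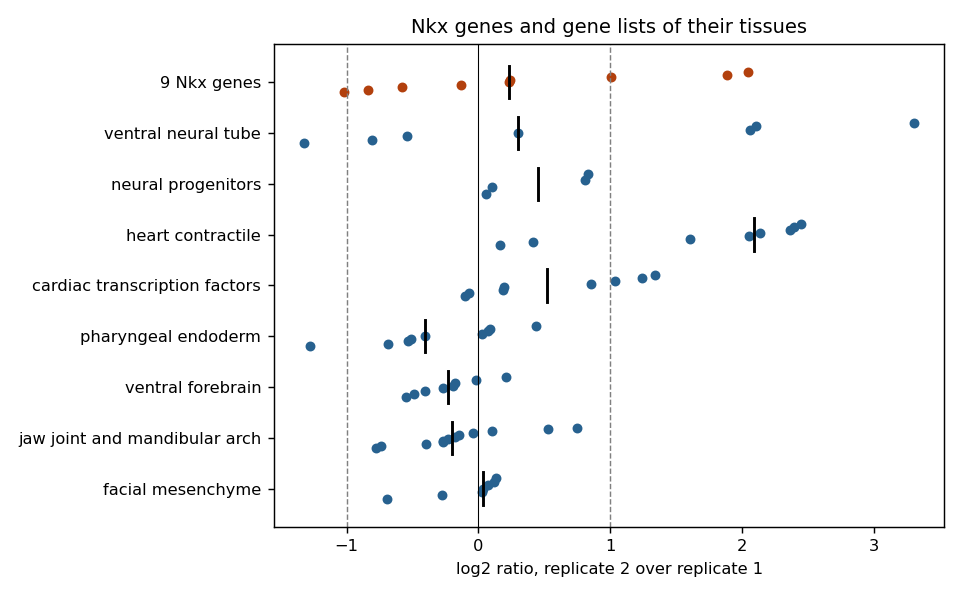
Log2 ratio of replicate 2 over replicate 1 for the 9 Nkx genes and for gene lists of the tissues named at the left, 1 point per gene with a mean count of at least 10, black bars for medians and dashed lines at 2-fold. The Nkx genes spread from -1.02 to 2.05, the heart contractile genes centre on 2.09, and the facial mesenchyme genes centre on 0.04.

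The mandibular genes around Nkx3-2 had a median level of 9.04 TPM, and values were lower in replicate 2 for 9 of the 12. Among those 9 the fold intervals of Sox9, Dlx6 and Edn1 held 1, as did that of Chrd, which was higher in replicate 2. Of 12 genes of the jaw joint and mandibular arch, 11 were detected and none was 2-fold apart, with a median log2 ratio of -0.20. Sox9, the cartilage regulator, had 90.3 TPM in replicate 2 and 94.8 TPM in replicate 1, Dlx5 had 62.8 TPM in replicate 2 and 77.5 in replicate 1, and Barx1, a gene of the tooth-forming mesenchyme, had 36.3 TPM in replicate 2 and 48.9 in replicate 1. The lowest were the BMP antagonist Chrd (1.07 in replicate 2, 1.06 in replicate 1) and the joint ligand Gdf5 (0.43 in replicate 2, 0.75 in replicate 1). Gsc and Gdf6, named after their values were seen, had folds of 0.583 (0.504 to 0.671) and 1.68 (1.40 to 2.04). All 7 facial mesenchyme genes were detected. So were all 8 ventral forebrain genes and 58.2% of named protein coding genes, so detection by itself does not identify the tissue. Msx1 had 303 TPM in replicate 2 and 281 in replicate 1, and in replicate 2 Prrx1 had 106.5 TPM (replicate 1, 108), Prrx2 79.5 (replicate 1, 74.5), Twist1 24.4 (replicate 1, 30.3) and Alx4 19.0 (replicate 1, 18.9).

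Caudal and trunk genes, the company of Nkx1-2, were near the limit of detection. None of 7 caudal epiblast and tail bud genes was detected in both pools, and 3 had no counts in either, Cdx2, Cdx4 and Msgn1. Wnt3a, also a gene of the dorsal neural tube, had 1.44 TPM in replicate 2 and 0.65 TPM in replicate 1 and was 2-fold apart, while Brachyury (T) had 0.49 TPM in replicate 2 and 0.33 in replicate 1, and Tbx6 had 0.3 TPM in replicate 2 and 0.51 in replicate 1. Of 6 trunk Hox genes 4 had no counts in either library, Hoxb8, Hoxc6, Hoxc8 and Hoxa9, while Hoxb5 had 11 counts in replicate 2 and 3 in replicate 1, and Hoxb6 had 4 in replicate 2 and 0 in replicate 1. Genes of the Groucho family, to which partners of Nkx repressors belong, were present throughout. Whether each of them acts with an Nkx protein was not tested. All 5 were detected, Aes at 185 TPM in replicate 2 and 239 in replicate 1, Tle3 at 42.0 (replicate 1, 43.7), Tle1 at 28.5 (replicate 1, 28.5), Tle4 at 14.2 (replicate 1, 15.1) and Tle2 at 11.7 (replicate 1, 14.5), the first value of each being replicate 2.

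For each detected member, the listed genes nearest in level were found by distance on log2(TPM + 0.1) over the 2 libraries among 106 candidates. Genes near Nkx6-2 included Dbx1 (distance 0.70) and Myl7 (0.84). The nearest to Nkx2-1 were Pax9 (0.53), Six6 (0.55) and Fezf1 (0.60), and those to Nkx2-6 were Pax1 (0.36), Foxe1 (0.43) and Vax1 (0.45). Nkx3-2 lay nearest to Foxa2 (0.13), Foxe1 (0.44) and Edn1 (0.45), Nkx2-2 to Pax8 (0.16), Myl4 (0.54) and Foxa2 (0.57). Genes near Nkx2-3 included Tlx1 (0.39) and Vax2 (0.41). With 2 libraries this likeness describes level and difference between pools only.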

How the data were processed

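Expected counts and posterior mean counts per gene and transcript were deposited by the authors for each library and are not normalized. TPM values were deposited by the authors, scaled to a fixed total over all features, spike-ins included. Isoform shares were deposited as a percent of the gene. Per the file notes, reads were quantified on mm10 with GENCODE M4, and the aligner and quantifier are not given in the sources used here. Symbols, classes and coordinates came from GENCODE M21 on GRCm38 by gene ID without version.

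Ratios of replicate 2 over replicate 1 used expected counts rounded for TMM scaling in edgeR 4.0.16, with a prior count of 2. A gene was called at 2-fold or more with a mean count of at least 50, and detected where both libraries had 1 TPM or more. Clopper-Pearson and Poisson 95% intervals used scipy 1.17.1. The labels give the libraries as separate pools of embryos, so they were counted as 2 samples. A chi-square comparison of the libraries gave 8.94 per degree of freedom over 17546 genes, a spread beyond counting error. The procedure was tested on simulated data. For folds and their intervals these data held counting error only, so that test does not cover the wider spread between the pools. Of each list, the 3 highest, the 2 lowest and all members called 2-fold apart are named, apart from some genes and sequences that are not reported here. Members and lists were chosen with earlier results of these data known. Alternatives changed the scaling, prior, thresholds, TPM estimate and library.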

Additional observations from a re-analysis of the deposited data

How the results depend on the processing

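The main limits are 2 libraries of 1 group, low counts, and counting whose use of strand is unknown. Of 239 alternatives, 24 moved a count or list median, as given here, and 3 moved the value of a single gene, the level of Nkx2-3 or the leading transcript share of Nkx2-1 or Nkx2-2. No call changed direction. At a TPM of at least 5, 0 of the 9 Nkx genes were detected, and the lists gave 0 other Nkx genes, 1 NK-like gene, 6 jaw joint, 3 pharyngeal, 0 heart contractile, 0 ventral neural tube and 5 forebrain genes. At 0.5 TPM they gave 2 other Nkx genes, 6 heart contractile, 1 thyroid and lung and 1 caudal gene. Rescaling TPM over Ensembl genes gave 2 other Nkx genes, 4 heart contractile and 1 thyroid and lung gene, and posterior mean TPM gave 5 heart contractile and 1 thyroid and lung gene. Leaving out 1 replicate gave 6 to 7 Nkx genes, 1 to 2 other Nkx genes, 2 to 6 heart contractile genes, 0 to 1 thyroid and lung gene and 0 to 1 caudal gene, the highest counts coming without replicate 1 except for the other Nkx genes. Neighbours separated numbered 0 with a pseudocount of 1 TPM and 4 with posterior mean TPM. Each library alone separated 1 pair, but not the same one. It was Nkx6-2 over Nkx2-1 in replicate 2 (1.75) and Nkx2-1 over Nkx2-3 in replicate 1 (1.13). Members at least 2-fold apart numbered 3 with median-of-ratios factors or total counts, Nkx2-2 being lost. Without a filter the median log2 ratio of the caudal genes was 0, since 3 of 7 have no counts, that of the thyroid and lung genes was 0 (-0.13 with the filter), and that of the ventral neural tube genes was -0.12 (0.30 with it), a change of sign that comes with the added gene Mnx1, at 1 count. The cause of the other shifts was not tested. No paired analysis was possible because there is 1 group.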
